A study of Mus musculus with 6 samples.

Results

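Follicular dendritic cells are stromal cells of the B cell follicle that hold antigen as immune complexes on long processes and release the chemokine that draws B cells in. Their network forms and persists under lymphotoxin and TNF signals, which B cells largely supply, and it is lost when those signals are withdrawn. The values below concern 10 genes used as markers of these cells other than Cxcl13, namely Mfge8, Clu, C4b, Bst1, Coch, Cilp, Lrat, Prnp, Enpp2 and Fcgr2b. Probes were matched to them through the accession printed on the array, by way of the RefSeq gene table of the mouse assembly GRCm38.p6, and every probe found was kept. This gave 9 probes for 8 of the 10 genes, among 41006 probes that were not controls. Mfge8 had 2 probes and each other matched gene 1. No probe was named Prnp or Enpp2 here, so nothing is said of their levels.

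RNA came from mesenteric lymph nodes of naive adult mice, and each sample pooled the nodes of 3 mice. The samples labelled TB-TNF KO double lacked TNF in T cells and B cells (3 arrays, of which replicates 1 and 3 were labelled male and replicate 2 female). The samples labelled B-TNF KO lacked it in B cells (3 arrays, all labelled male). Both groups therefore share the B cell deletion, and the comparison between them adds the T cell deletion, with no wild-type sample analysed here. The promoters that drove the deletions are not given in the sources used here. Each array carried the node RNA in Cy3 and a pool of RNA from mouse cell lines in Cy5, so the basic value is the log2 ratio of sample over reference.

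The arrays had features that bear on every value below. Median background-subtracted sample intensity was 144 to 166 in TB-TNF KO double and 159 to 203 in B-TNF KO, and that of the reference channel 315 to 362 and 280 to 283. Per the file headers, the images of each group were extracted on a day of their own, so day and group cannot be told apart. For each pair of arrays, the SD of probe differences in the node RNA was divided by that in the reference RNA. Arrays 1 and 2 of TB-TNF KO double gave 0.952, and the 14 other pairs 1.05 to 1.59. Between those arrays 9 probes differed more than 2-fold, against 28 to 212 in the other pairs. Their node RNA differed by less than the reference RNA on the same 2 arrays (SD 0.174 against 0.183), and their mean was counted as 1 sample (n = 2 against 3). Replicate 3 therefore weighs more in the TB-TNF KO double mean than in that of B-TNF KO. The reference noise varied between pairs. For arrays 1 and 2 of B-TNF KO the SDs were 0.188 in node RNA and 0.142 in reference RNA. Eif2s3y, which lies on the Y chromosome, read -2.81 in the library labelled TB-TNF KO double replicate 1, whose label says male, and -2.84 in replicate 2. It read 1.49 in TB-TNF KO double replicate 3, and 0.59, 0.88 and 1.83 in B-TNF KO replicates 1 to 3. The low readings were in TB-TNF KO double alone, so sex and group cannot be told apart on arrays 1 and 2. Exocrine pancreas transcripts were high on arrays 1 and 2 of each group (array medians of 4.42 and 4.44 in TB-TNF KO double and 3.57 and 4.16 in B-TNF KO) and near 0 on replicate 3 of each (0.02 and 0.06). Each marker is also given as a range over fits that leave out 1 array at a time. None of these fits removes the pancreas transcripts or the low Eif2s3y values, since each was on more than 1 array. In whole nodes, fewer cells of a type and less RNA per cell cannot be told apart.

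The measured quantity is hybridisation to a 60-base probe. The opening 30 bases of each probe are printed here, 5′ to 3′ as deposited, because brightness and composition differ widely between them. No bases are capitalised.
Cilp: tttctgtccatctcatgtgacagctgtcgt
Coch: atgtgcactagccataactacacattatat
Lrat: ggagtcacatttctggtactgaactgtttt
Bst1: aaccagacggtaatccagttgtatttacac
Fcgr2b: ctggatgaagaaacagagcatgattaccag
Clu: gtgttaccagaagaagtctctaaggataac
C4b: ttaggactctggctctctgagctcagctca
Mfge8, bright probe: ctctgctggcttgctacccaagttaacaag
Mfge8, dimmer probe: atgcgggtatcaggtgtgatgacgcagggt
Over all 60 bases the G and C content was lowest for Coch (33.3%) and Bst1 (36.7%) and highest for the dimmer Mfge8 probe (66.7%). It was 55.0% for C4b and 45.0% for the other 5. All 9 probes were well above background in both channels on all 6 arrays, and 0 of their values were saturated or marked as outliers.

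Of the 8 measured genes 7 had lower and 1 higher log2 ratios in TB-TNF KO double than in B-TNF KO, and 0 passed the threshold of an adjusted p under 0.05 in limma, where 0.0108% of all 37048 genes tested were called lower and 0% higher. At an unadjusted p under 0.05, 3 of 8 were lower (Bst1, Cilp and Coch) and 1 higher (Lrat), against 11.3% and 5.03% of all genes. In 4 genes every TB-TNF KO double array lay below every B-TNF KO array and in 1 every one lay above, against 17.2% and 10.7% of all genes. The median difference of the 8 was -0.13, beside -0.01 over all genes. Cxcl13, the follicular chemokine gene left out of the set, differed by -1.56 (SE 0.09, adjusted p = 0.0257) or 2.95-fold lower, while the lowest of the 8 was at -0.84. The Cxcl13 probe that stood for the gene differed by -1.94 in the sample channel and -0.75 in the reference channel. A second Cxcl13 probe differed by -1.65 (SE 0.09) in the ratio and by -1.23 in the sample channel. In the reference channel it differed by 0.18, with overlapping groups. The Cxcl13 call held in 10 of the 20 alternatives with a test, and its difference was -1.94 to -1.28 over all 21. The call was lost when any single array other than replicate 1 of TB-TNF KO double was left out (adjusted p = 0.0509 to 0.176), without background subtraction (0.0588), with an offset of 0 (0.114) and with the authors' log ratio (0.122) or series table (0.123), and with replicates 1 and 2 only (0.409).

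**Figure D1:**
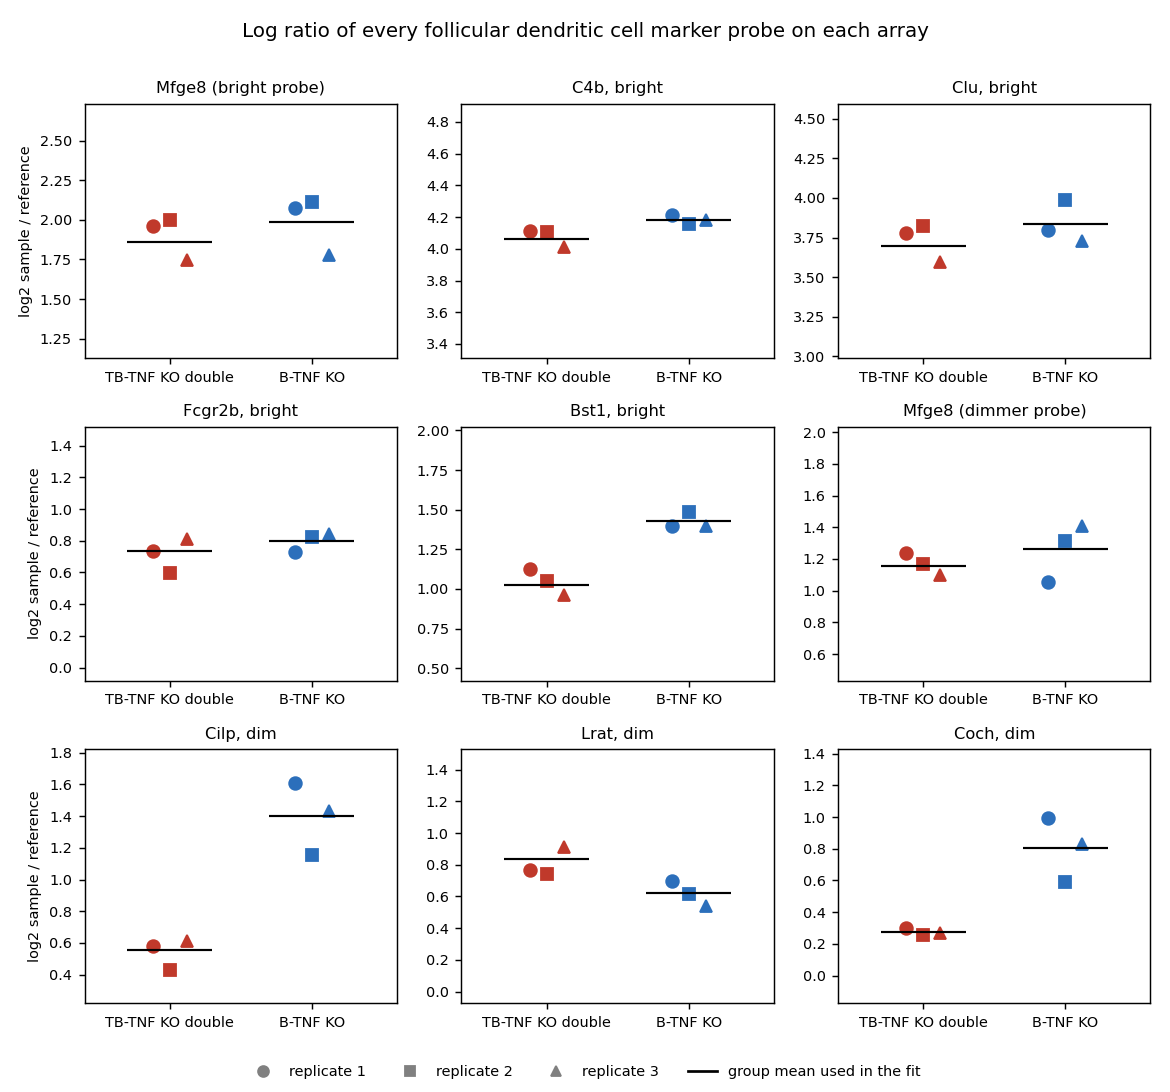
Each panel plots the log2 ratio of sample over reference of 1 probe (y axis, the same span in each panel) on the 3 TB-TNF KO double arrays, left, and the 3 B-TNF KO arrays, right, with the marker shape giving the replicate and the bar the group mean used in the fit. The groups lie clearly apart for Cilp, Coch and Bst1, narrowly for C4b and Lrat, and overlap for Clu, Fcgr2b and both Mfge8 probes.

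Mfge8, Clu and C4b encode secreted products linked to the function of the mature network, and 1 probe of each was among the 3 brightest of the 9. Mfge8 encodes a bridging protein that binds phosphatidylserine and lets macrophages of the germinal centre take up dying B cells. Its bright probe had log2 ratios of 1.96, 2.00 and 1.75 on TB-TNF KO double arrays 1 to 3, against 2.08, 2.11 and 1.78 on B-TNF KO arrays 1 to 3. The groups overlapped, and in each of them replicate 3 was the lowest array. The difference was -0.12 (SE 0.12, 95% confidence interval -0.42 to 0.17, adjusted p = 0.690). Over the fits without 1 array the bright probe ranged from -0.23, without replicate 3 of B-TNF KO, to -0.01, without replicate 3 of TB-TNF KO double. Between arrays of the same number its differences were -0.11, -0.11 and -0.03, all negative. The fit of the 6 separate arrays with the replicate number as a block weighs replicate 3 alike in both groups. It gave a smaller difference of -0.09 (adjusted p = 0.274). The dimmer probe read 1.24, 1.17 and 1.10 in TB-TNF KO double, against 1.06, 1.32 and 1.41 in B-TNF KO. Its groups overlapped too, and it differed by -0.11 (SE 0.11), so the 2 Mfge8 probes gave nearly the same difference although replicate 3 of B-TNF KO was lowest on one and highest on the other.

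Clu encodes clusterin, a secreted chaperone. It read 3.78, 3.82 and 3.60 in TB-TNF KO double, against 3.80, 3.99 and 3.73 in B-TNF KO. The ranges overlapped and the difference was -0.14 (SE 0.10, 95% confidence interval -0.38 to 0.10, adjusted p = 0.556). With single arrays left out it ranged from -0.19, without replicate 3 of B-TNF KO, to -0.04, without replicate 3 of TB-TNF KO double. Between arrays of the same number Clu differed by -0.02, -0.16 and -0.13, and the blocked fit gave -0.11 (adjusted p = 0.234). Background-subtracted sample intensity of the Clu probe was 5769, 5890 and 6519 in TB-TNF KO double, against 10674, 10549 and 12832 in B-TNF KO. With the sample channel normalised between arrays on its own, Clu differed by -0.41 (SE 0.08, adjusted p = 0.0588 over all genes) with no overlap. Its reference channel differed by -0.47 (SE 0.06), also with no overlap.

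C4b encodes complement component C4, whose fragments on these cells are seen by a classical marker antibody. A neighbouring, closely similar gene, C4a, exists in the mouse, and whether the probe also binds its RNA was not tested. C4b read 4.11, 4.11 and 4.01 in TB-TNF KO double, against 4.21, 4.16 and 4.18 in B-TNF KO. All TB-TNF KO double arrays were lower, by a narrow margin. The difference was -0.12 (SE 0.05, 95% confidence interval -0.24 to 0.00048, adjusted p = 0.307), and with the sample channel alone it was -0.12 with overlapping groups. With single arrays left out it ranged from -0.13 to -0.07, which was reached without replicate 3 of TB-TNF KO double. Replicate 3 of each group alone gave -0.17.

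Of the surface molecules, Bst1 had groups that lay apart and Fcgr2b groups that overlapped. Bst1 encodes BP-3, an ADP-ribosyl cyclase on lymphoid stroma and early B lineage cells. It read 1.13, 1.05 and 0.96 in TB-TNF KO double, against 1.40, 1.49 and 1.40 in B-TNF KO. The gap between the groups was wider than the range within either. The mean was 1.02 ± 0.09 (SD, n = 2) in TB-TNF KO double and 1.43 ± 0.05 (SD, n = 3) in B-TNF KO, a difference of -0.40 (SE 0.06), or 1.32-fold lower, with an adjusted p of 0.055 that misses the threshold. Background-subtracted intensity was 472, 416 and 507 in TB-TNF KO double, against 777, 769 and 922 in B-TNF KO. Among all genes only 1.19% had a difference as low or lower. Leaving out single arrays gave -0.42 to -0.34, and replicate 3 of each group alone -0.44.

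Fcgr2b encodes the inhibitory receptor for IgG, which these cells use to hold immune complexes and which B cells and macrophages also carry. It read 0.73, 0.60 and 0.81 in TB-TNF KO double, against 0.73, 0.82 and 0.84 in B-TNF KO. The groups overlapped and the difference was -0.06 (SE 0.06, 95% confidence interval -0.22 to 0.10, adjusted p = 0.719). With the sample channel alone it was 0.0065. With single arrays left out it ranged from -0.13, without replicate 3 of TB-TNF KO double, to -0.03, without replicate 2 of that group. It was also moved to -0.09 without replicate 1 of either group and to -0.04 without replicate 3 of B-TNF KO. Replicate 3 of each group alone gave -0.03.

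Cilp and Coch, matrix-associated secreted proteins better known from cartilage and the inner ear, had the lowest log2 ratio differences in the set at the settings used here. Cilp read 0.58, 0.43 and 0.61 in TB-TNF KO double, against 1.61, 1.16 and 1.43 in B-TNF KO. The groups were well apart, and B-TNF KO varied more. The means were 0.56 ± 0.07 (SD, n = 2) in TB-TNF KO double and 1.40 ± 0.23 (SD, n = 3) in B-TNF KO. The difference of -0.84 (SE 0.13) corresponds to 1.79-fold lower and had an adjusted p of 0.0581. Coch read 0.30, 0.26 and 0.27 in TB-TNF KO double, against 1.00, 0.59 and 0.83 in B-TNF KO. Its difference was -0.53 (SE 0.11, adjusted p = 0.0993), or 1.44-fold lower, again with no overlap.

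These were faint probes. Over a local background of 370 or 371, the Cilp spot added 76, 75 and 92 units of sample intensity in TB-TNF KO double, against 263, 160 and 276 in B-TNF KO. The Coch spot added 51, 49 and 49 units in TB-TNF KO double, against 83, 67 and 111 in B-TNF KO, over a background of 367 to 369. The size of both differences depended on how background was handled. Without background subtraction Cilp was at -0.39 and Coch at -0.14, while normexp with an offset of 0 gave -0.96 and -0.93. Without background subtraction Coch was less negative than Bst1 (-0.34), Clu (-0.25), C4b (-0.17) and Mfge8 (-0.16), and in the sample channel alone its -0.34 was less negative than Bst1 (-0.46) and Clu (-0.41). The sign was negative for both in each of the 21 alternatives. Leaving out arrays singly, Cilp ranged from -0.96 to -0.74 and Coch from -0.64 to -0.43, and replicate 3 of each group alone gave -0.82 and -0.56.

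Lrat encodes the enzyme that esterifies retinol, a stromal trait best known from liver stellate cells. It was the marker with higher values. It read 0.77, 0.74 and 0.91 in TB-TNF KO double, against 0.70, 0.62 and 0.54 in B-TNF KO. The groups lay apart by little, and the difference was 0.21 (SE 0.07, adjusted p = 0.219). Its background-subtracted intensity was 81, 78 and 94 in TB-TNF KO double, against 90, 70 and 81 in B-TNF KO, which overlap. The difference was 0.37 in replicate 3 alone and 0.10 with replicate 3 of each group left out. With single arrays left out it ranged from 0.14, without replicate 3 of TB-TNF KO double, to 0.26.

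Bright and dim markers were then set side by side. A probe was called bright when its mean normalised sample signal lay in the top 25% of probes tested, dim when it lay in the lower 50%, and intermediate otherwise. Brightness belongs to a probe and is no measure of transcript level. Mfge8, C4b, Clu, Fcgr2b and Bst1 were bright by their tested probe, Cilp, Lrat and Coch were dim, and the dimmer Mfge8 probe was intermediate. The 5 bright genes ranged from -0.40 to -0.06, and 4 of them lay between -0.14 and -0.06. The 3 dim genes spanned -0.84 to 0.21. In 2 of 5 bright and 3 of 3 dim genes the groups did not overlap. Over all genes 26.1% of bright and 11.5% of dim ones were lower without overlap and 13.4% and 9.22% higher.

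Set against genes of like brightness (bins of 0.75 on the log2 scale), the 3 dim markers were near the edges. Cilp lay at the 0.0665 percentile of 6016 genes, Coch at the 0.0691 and Lrat at the 98.04 percentile of 7231. Bst1 lay at the 2.30 percentile of 3565 genes. The brightest ones were less extreme, with Clu at the 21.1 percentile of 299, C4b at the 17.9 of 151 and Mfge8 at the 9.29 of 269. Mfge8 sat in the brightest bin, where the median gene differed by 0.15, so its -0.12 was farther from its neighbours than from 0. Fcgr2b was in the middle of its bin (44.2 percentile of 2536). These positions are descriptions of the genes on these arrays.

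**Figure D2:**
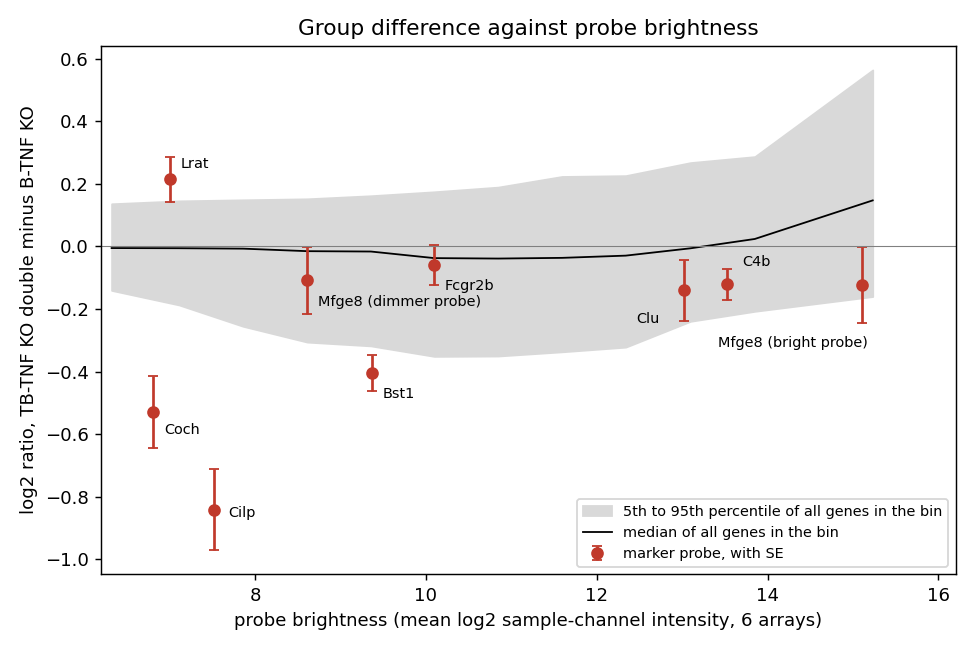
The difference in log2 ratio, TB-TNF KO double minus B-TNF KO (y axis, with SE), is plotted against the mean log2 sample-channel intensity of each marker probe (x axis), over the 5th to 95th percentile band and the median of all genes in bins of brightness. Cilp, Coch and Bst1 lie below the band and Lrat above it, and the bright probes of Clu, C4b and Mfge8 lie inside it, in its lower part.

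The channels were then read apart, each normalised between arrays on its own. In the sample channel 4 of 9 probes (Bst1, Cilp, Clu and Coch) were lower in TB-TNF KO double without overlap, and 0 higher, where 17.3% and 15.4% of all genes were. Bst1 differed by -0.46 and Cilp by -0.93, each with an adjusted p of 0.047, and these 2 passed, where 0.775% of all genes were called lower and 0.683% higher. In the reference channel 5 of 9 probes (Bst1, C4b, Cilp, Clu and the dimmer Mfge8 probe) were lower without overlap, and 0 higher, against 18.9% and 11.9% of all genes. There 0 passed, as did 0% of all genes, and at an unadjusted p under 0.05 there were 4 lower and 0 higher, against 13.6% and 9.16% of all genes. Cilp differed there by -0.25, Bst1 by -0.21 and Coch by 0.15. The reference RNA was the same pool on every array, and what set these differences was not tested. The difference of Coch in the ratio is larger than in the sample channel alone (-0.34).

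**Figure D3:**
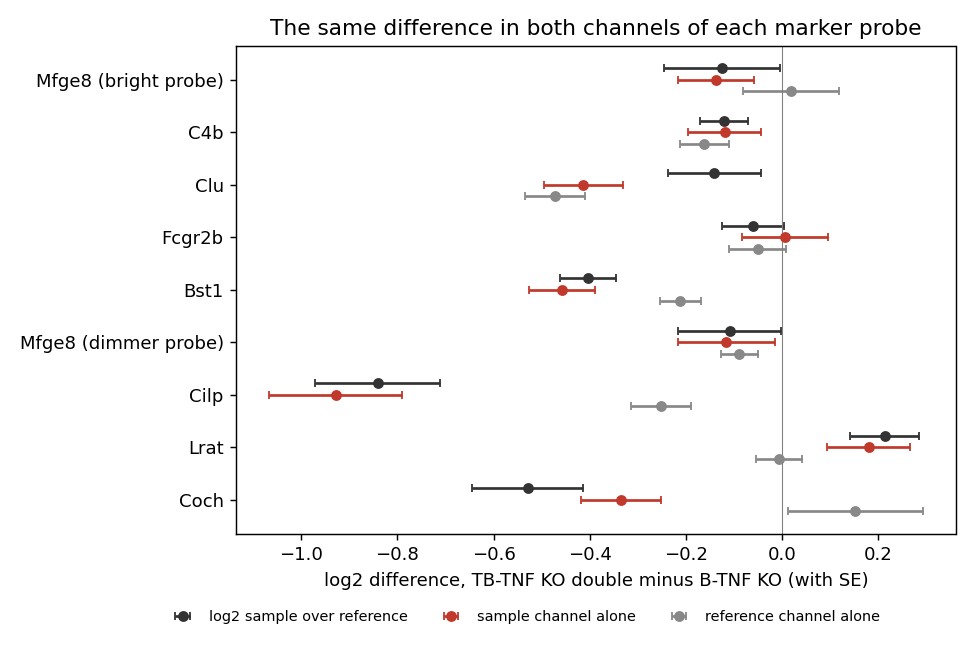
For each of the 9 probes, from brightest at the top, the difference TB-TNF KO double minus B-TNF KO (x axis, log2, with SE) is shown for the ratio, for the sample channel alone and for the reference channel alone. Clu has nearly equal differences in both channels, Cilp and Bst1 are lower mainly in the sample channel, and Coch has values of opposite sign in the 2 channels.

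The calls for Bst1, Cilp and Coch changed with how samples were counted. Those for Bst1 and Cilp also changed with the channel, as given above. With the 6 arrays counted separately, which takes arrays 1 and 2 of TB-TNF KO double as separate samples, Bst1 (adjusted p = 0.0135), Cilp (0.0114) and Coch (0.0251) passed in limma, where 4.68% of all genes were called lower and 1.45% higher. With the replicate number as a block in that fit they had adjusted p-values of 0.017, 0.0103 and 0.019, where 6.48% were called lower and 1.84% higher. With an intensity trend and a robust prior and arrays 1 and 2 averaged, Cilp alone of the 8 passed (adjusted p = 0.0351), where 0.983% were called lower and 0.335% higher. Mfge8, Clu, C4b, Lrat and Fcgr2b passed in none of the 20 alternatives that gave a test.

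**Figure D4:**
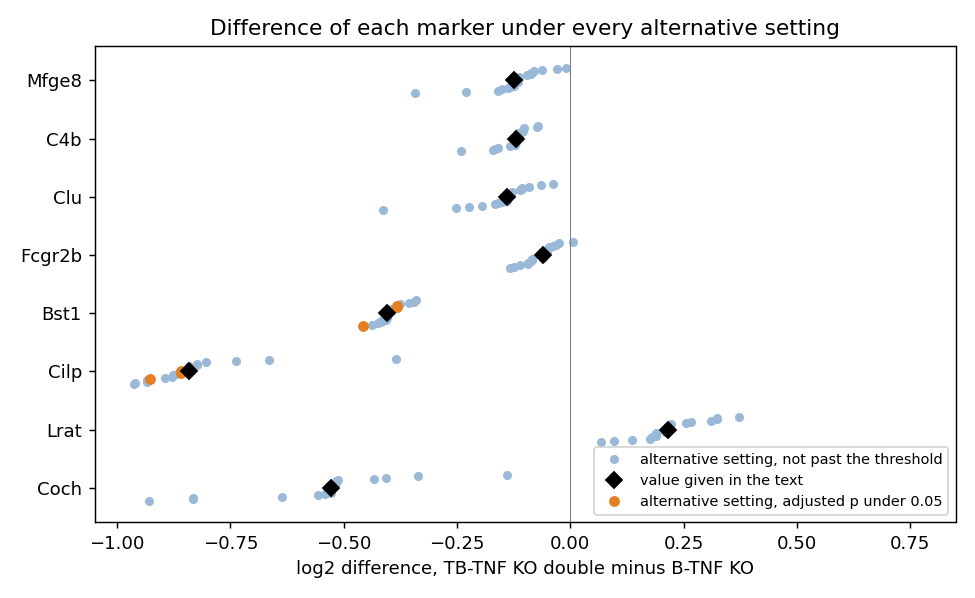
Each row is 1 marker, and the points are its difference TB-TNF KO double minus B-TNF KO (x axis, log2) under the 21 alternative settings, coloured where the adjusted p was under 0.05, with the value given in the text as a diamond. Cilp and Coch spread widely on the negative side, Bst1 keeps within -0.46 and -0.34, and Fcgr2b reaches 0.0065.

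Cells other than follicular dendritic cells express several of these genes, and their markers were read on the same arrays. Of 10 measured fibroblastic reticular cell genes 10 had lower values, with 0 past the threshold, 5 at an unadjusted p under 0.05 and a median difference of -0.14. Over all genes, 11.3% were lower at that unadjusted p, which holds as the background of the lists that follow too. That share was 20.4% in bright, 12.5% in intermediate and 6.02% in dim genes. Most measured fibroblastic reticular cell, B cell and macrophage genes were bright. The array medians of the fibroblastic reticular cell list were 1.21 to 1.24 in TB-TNF KO double and 1.47 to 1.52 in B-TNF KO. Of 8 macrophage genes 6 had lower values, 0 passed and 3 had an unadjusted p under 0.05. Their median was -0.16, with array medians of 2.73 to 2.88 in TB-TNF KO double and 2.91 to 3.09 in B-TNF KO. Of 9 B cell genes 5 had lower values, 0 passed and 3 had an unadjusted p under 0.05. The other 4 B cell genes had higher values. The median of the B cell list was -0.08, with 0.05 in the sample channel and -0.18 in the reference channel. Its array medians were 2.10 to 2.44 in TB-TNF KO double and 2.76 to 2.83 in B-TNF KO, and follow 1 middle gene, Blk (means 2.29 and 2.80). All 10 measured endothelial genes had lower values and 5 an unadjusted p under 0.05, with a median of -0.18 and array medians of 0.96 to 1.14 in TB-TNF KO double and 1.18 to 1.36 in B-TNF KO. Lyve1, the hyaluronan receptor of lymphatic endothelium, passed among them at -1.22 (adjusted p = 0.0081), with -0.41 in the sample channel and 0.54 in the reference channel. Its call held in 11 of 20 alternatives with a test. It was lost without replicate 2 or 3 of B-TNF KO (adjusted p = 0.0885 and 0.0561) or replicate 3 of TB-TNF KO double (0.0711), without background subtraction (0.0588), in the sample channel alone (0.0696), with the mean of its probes (0.0559, at -0.63), with an offset of 0 (0.0563), with the authors' series table (0.0519) and with replicates 1 and 2 only (0.409). The marker set itself had array medians of 0.89 to 0.95 in TB-TNF KO double and 1.32 to 1.505 in B-TNF KO. Its middle genes were Lrat and Bst1 on the TB-TNF KO double arrays and Cilp and Bst1 on the B-TNF KO arrays. The gap between these array medians is thus no shift of the whole set, whose median difference was -0.13. In every list an array median rests on the middle genes alone. The part of these cell types in the marker values was not tested.

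Of 17 measured other genes of follicular dendritic cells or of their induction, 1 (Cxcl13) was lower past the threshold and 0 higher. Of the 17, 13 had lower and 4 higher values, the median difference was -0.10, and most were bright. At an unadjusted p under 0.05 in limma, 6 were lower, Cxcl13 among them, and 1 higher, against 11.3% and 5.03% of all genes. Of bright genes, 20.4% were lower at that p. Without overlap 7 were lower and 1 higher, against 17.2% and 10.7% of all genes. Sparcl1, a matricellular protein gene, had the largest difference after Cxcl13, -0.63 (SE 0.08, adjusted p = 0.053). C3, the central complement component, was at 0.45 (SE 0.17, adjusted p = 0.271), but at -0.03 in the sample channel alone and -0.02 in the reference channel alone. Neither channel on its own thus showed the C3 difference of the ratio, and what set it was not tested. Fcer2a, the low-affinity IgE receptor gene shared with B cells, was at -0.08 (SE 0.15), Madcam1, an adhesion molecule gene of follicular stroma and venules, at -0.10 (SE 0.38), and no probe was named Cr2 here. Cxcl13, Fcer2a and Madcam1 averaged 3.46, 2.03 and 3.48 in TB-TNF KO double and 5.02, 2.10 and 3.59 in B-TNF KO on the log2 ratio scale. Fcer2a and Madcam1 were named with their values known, so these levels are a description of the nodes and no check that could have failed.

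The genes whose centred log2 ratios over the 6 arrays lay closest to those of Cilp were the RNA-binding protein gene Hnrnpdl, the eosinophil chemokine gene Ccl11 and the core-binding factor gene Cbfb, with root mean square distances of 0.10, 0.11 and 0.12. They differed by -0.67, -0.67 and -0.64.

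Promoter sequence was in hand for 6 of the 10 genes in RefSeq's table for GRCm38.p6. Those of Cilp and Coch, the markers with the lowest differences, are printed as the 250 bases before the transcript start that the promoter table uses, at chr9:65264930-65265179 (plus strand) and chr12:51593091-51593340 (plus strand), with matches to TATAA in capitals. For Coch this transcript start lies inside the gene's record, so the end of its window overlaps the gene.
Cilp: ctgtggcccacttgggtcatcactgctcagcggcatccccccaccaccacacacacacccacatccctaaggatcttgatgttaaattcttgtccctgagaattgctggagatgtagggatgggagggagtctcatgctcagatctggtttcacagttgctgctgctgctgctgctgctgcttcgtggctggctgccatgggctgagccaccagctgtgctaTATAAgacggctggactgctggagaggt
Coch: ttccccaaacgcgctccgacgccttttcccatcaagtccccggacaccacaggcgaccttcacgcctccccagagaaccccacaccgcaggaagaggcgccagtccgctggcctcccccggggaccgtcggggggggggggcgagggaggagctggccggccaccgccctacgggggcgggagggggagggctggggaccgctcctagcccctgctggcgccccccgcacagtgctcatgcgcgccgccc
TATAA was searched on both strands and begins 28 bases before the transcript start of Cilp, and the Coch window held none. It was in 3 of the 6 promoters and in 22.8% of all 32851. The NF-kB consensus, the site of the factor that TNF activates, was searched on both strands as well, with 0 of 6 windows matching and 3.9% of all. Those letters are not in these windows, and nothing follows from that about the factor.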

How the data were processed

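Mesenteric node RNA was hybridised to 6 Agilent 2-colour arrays. Per the file headers, the authors extracted the images with Agilent Feature Extraction A.7.5.1. The deposited scanner files give spot and background intensity for both channels, flags, and Agilent's own log10 ratio (Cy5 over Cy3). Values in the series table, also log10 as deposited, have a scaling that is not given in the sources used here. From the intensities, background was corrected with normexp (offset 50) and arrays were normalised by loess in limma 3.58.1 (R 4.3.3). The 228 outlier spots were left out. Probes well above background on at least 3 arrays were kept (40792 of 41006), the brightest probe stood for a gene, and 37048 genes were tested with lmFit and eBayes, Benjamini-Hochberg adjusted over all of them. Differences are TB-TNF KO double minus B-TNF KO on the log2 scale. The number of arrays limits the precision, and, beyond labels that number the pools as replicates, nothing says that they are separate animals, so p-values measure the spread between these samples, which may be technical.

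The markers, lists and tests were chosen with earlier results of these data known, among them the averaging of arrays 1 and 2 of TB-TNF KO double. The genes named are the markers, Cxcl13, list members past the threshold, the 3 other follicular dendritic cell genes with the largest differences and the 3 genes most like the marker of largest difference. Fcer2a and Madcam1 were added after their values were seen. T cell and adipocyte lists were also measured. Of 11 T cell genes, all bright, 9 had lower values (3 at an unadjusted p under 0.05, median -0.09). So had 8 of 9 adipocyte genes (median -0.03) and 7 of 10 exocrine pancreas genes (median -0.24). In each list 0 passed the threshold, and 0 adipocyte or pancreas genes had an unadjusted p under 0.05. On arrays 1 and 2 the pancreas medians were higher in TB-TNF KO double (4.42 and 4.44 against 3.57 and 4.16). Replicate 3 was near 0 in both groups and weighs more in the TB-TNF KO double mean, so the -0.24 is not read as a lower level. Deviations from group means of same-numbered arrays correlated at 0.14, 0.51 and 0.61, so the replicate number was also fitted as a block, a pairing read from the data. Array 1 of TB-TNF KO double correlated more with array 2 of B-TNF KO (0.41) than with its array 1, so these values do not bear out the pairing of replicate 1. Alternatives changed the background correction, the normalisation, the probe rule, the filter, the channel, the model and the arrays included. The test was tested on simulated data. Plots used matplotlib 3.10.9 (Python 3.11.15).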

Additional observations from a re-analysis of the deposited data

How the results depend on the processing

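Of 168 marker values over 21 alternatives, 9 passed the threshold where the value in the text did not, and 1 changed direction, Fcgr2b at 0.0065 with the sample channel alone. Markers called lower were 0, but 3 with the 6 arrays counted separately, 3 with the replicate block added to that, 2 with the sample channel alone and 1 with an intensity trend and robust prior. The median of the 8 markers was -0.13, and -0.29 with median centring in place of loess. Leaving out single arrays gave medians of -0.21 to -0.10. Over all genes, 0 higher and 4 lower became 537 and 1733 with the 6 arrays counted separately, 682 and 2401 with the replicate block, 253 and 287 with the sample channel alone, and 124 and 364 with the trend and robust prior. The count of lower genes was 0 without background subtraction, 1 with the authors' deposited log ratio and 2 with the mean of all probes. It was 0 in 3 alternatives added after the data were seen, namely an offset of 0, the authors' series table and replicates 1 and 2 only, and 0 to 4 with single arrays left out. Replicates 1 and 2 only, or TB-TNF KO double without replicate 3, leave 1 sample in that group, assumed to vary like B-TNF KO, which by construction makes calls less likely. The count was 4 in only 1 of the 6 fits without 1 array, that without TB-TNF KO double replicate 1. Leaving out a B-TNF KO array or replicate 3 of TB-TNF KO double also reduces the samples in the fit. Leaving out replicate 1 or 2 of TB-TNF KO double does not, since their mean counts as 1 sample. Without that replicate 2 the count was 2. The cause was not tested. Faint probes limit Cilp, Coch and Lrat.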
